A study of Mus musculus with 6 samples.

Results

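The genes described here encode the endoplasmic reticulum (ER) stress and amino acid response of mouse small-intestinal group 3 innate lymphoid cells (ILC3s), lymphocytes that live in the gut wall and secrete IL-22. They are a list of 34 genes, found by symbol in a table of 25075 gene symbols. They fall into 4 roles: 14 chaperones and folding enzymes, 6 genes of ER-associated degradation and translocation, 5 sensors and transcription factors, and 9 targets of the transcription factor ATF4. The compared groups, on a b6 strain background, were Batffl/flPLZF-Cre+ mice, in which Cre under the PLZF promoter is meant to delete floxed Batf, a transcription factor of the AP-1 family, and Batffl/flPLZF-Cre- mice, which carry the floxed allele without Cre. Each group had 3 samples of 2000 sorted Lin-CD90.2+KLRG1- cells, which the series design calls biological replicates. Age and sex were not stated in the labels. RNA was read by Smart-seq2, which copies whole transcripts from very little RNA.

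The libraries need a description before the genes, because several features of them differed between the groups. Total counts were 8228513 to 13615895 in the libraries labelled Batf-deficient and 9080012 to 17334207 in those labelled control. The targeted gene went against the labels: Batf had 40.3 ± 1.77 CPM (counts scaled to a common library size, TMM factors included) in the libraries labelled Batf-deficient and 16.5 ± 2.13 CPM in those labelled control (SD, n = 3 each; edgeR log2 fold change 1.29, adjusted p = 1.70e-05). Which exons the floxed allele loses is not given in the labels, so counts over the whole gene can include transcripts of the rest of it. Xist, transcribed from the inactive X of females, had 230.2 ± 50.2 CPM in libraries labelled Batf-deficient and 0.902 ± 0.465 CPM in those labelled control (SD, n = 3 each), so sex and genotype label cannot be told apart. All 12 ILC3 markers were higher in the libraries labelled Batf-deficient with TMM factors, 6 of them with scaling on 19 ILC and T cell genes, and their summed share of counts was 0.954% to 1.01%, against 0.160% to 0.182% in those labelled control. The share of 34 pancreatic acinar genes, the cells that secrete digestive enzymes, was 0.00836% to 0.0105% in the libraries labelled Batf-deficient and 12.6% to 13.0% in those labelled control. The Batf result and these shares are why the groups are called labelled Batf-deficient and labelled control below.

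The scaling of the libraries decides most directions given below. With TMM factors, which assume that most genes do not differ, 4612 of 15261 genes tested (30.2%) were higher in the libraries labelled Batf-deficient and 5209 (34.1%) lower, and the median gene had a log2 fold change of 0.02. Scaling instead on the summed counts of those 19 genes, which ILCs and T cells share, shifted the median gene by -2.52, and 267 genes (1.75%) were then higher and 13408 (87.9%) lower. Scaling on library totals shifted it by -0.38, with 3048 (20.0%) higher and 6488 (42.5%) lower. Batf itself was at -1.23 with the ILC and T cell genes. Fold changes below are labelled Batf-deficient over labelled control with TMM factors, and the value scaled on the ILC and T cell genes follows where it turns the direction. Ratios of counts inside a library are the same under every scaling.

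The ER folds secreted and membrane proteins. When unfolded proteins build up there, the sensors IRE1α, PERK and ATF6 start the unfolded protein response: ATF6 and the spliced form of Xbp1 raise chaperone and degradation genes, while PERK slows translation and favours production of ATF4. ATF4 is also made when amino acids run short, through other kinases, and raises genes of amino acid supply together with Ddit3, Trib3 and Chac1. Plasma cells and pancreatic acinar cells, which export much protein, keep a large ER and high levels of these transcripts.

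All 34 members passed the filter on low counts. With TMM factors, 14 of the 34 (41.2%, against 30.2% of all genes tested) were higher in the libraries labelled Batf-deficient, 10 (29.4%, against 34.1%) were lower, and 10 did not pass the edgeR test at an adjusted p of 0.05. In either direction 24 passed, as did 64.4% of all genes tested. The CPM of the groups did not overlap for 27 members, where 71.2% of all genes tested did not overlap. The median member had a log2 fold change of 0.16 and the range was -5.91 to 1.96. Scaled on the ILC and T cell genes, all 34 were lower (median -2.35), where 87.9% of all genes tested were lower and 89.6% passed in either direction. On library totals 11 were higher and 16 lower, where 62.5% of all genes tested passed in either direction. The summed share of the 34 genes was 0.546% to 0.589% of counts in the libraries labelled Batf-deficient and 0.458% to 0.482% in those labelled control. In bulk libraries, fewer cells of a type and less RNA per cell cannot be told apart.

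**Figure D1:**
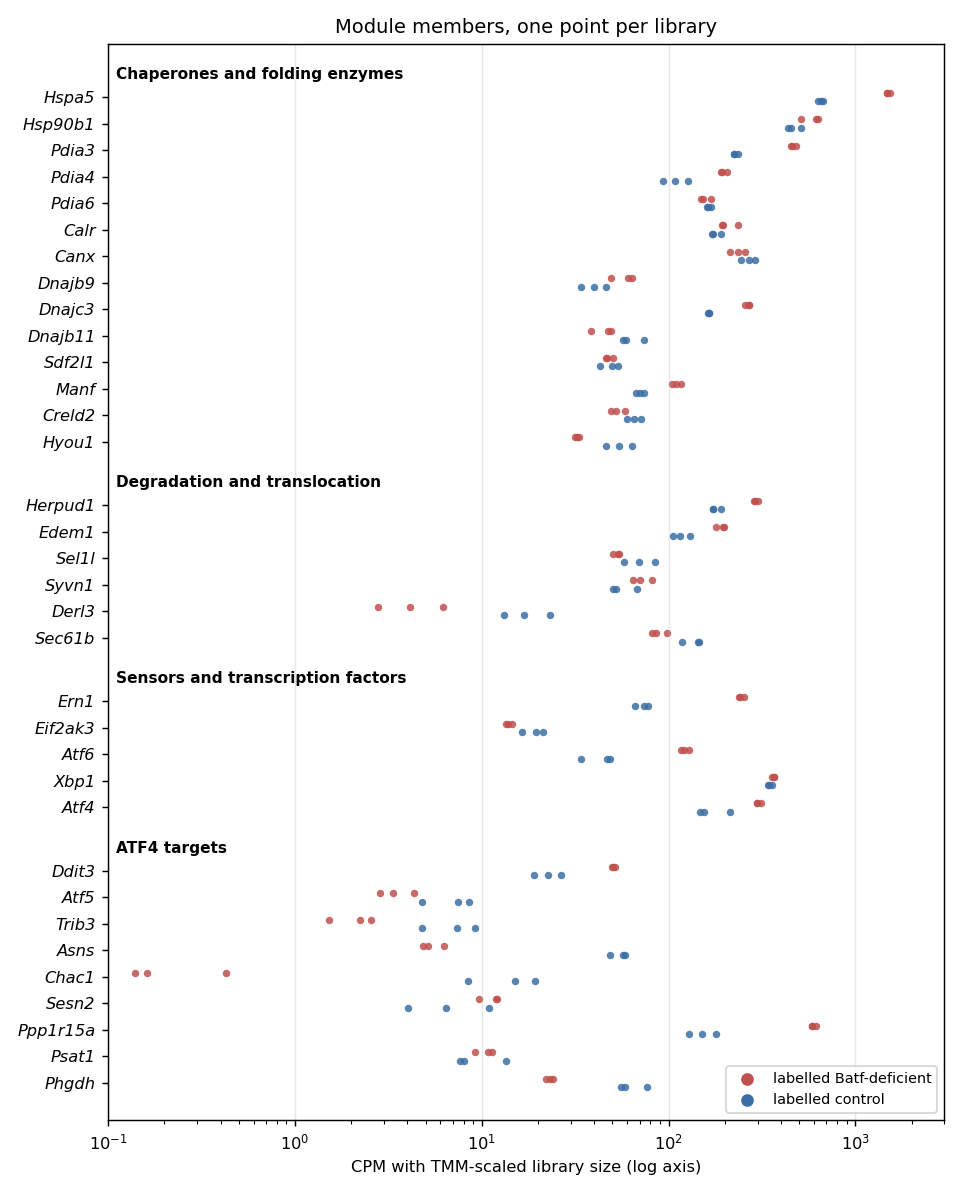
Level of each of the 34 genes in each library, in CPM with TMM-scaled library size on a log axis; each point is a library, and the 3 libraries of a group share a colour. Asns and Chac1 show the widest gaps between groups, at 5.42 and 0.242 CPM in libraries labelled Batf-deficient and 54.7 and 14.2 CPM in those labelled control.

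Of the 14 chaperones and folding enzymes, 7 were higher, 2 lower and 5 did not pass with TMM factors (median 0.27), where 30.2% of all genes tested were higher and 34.1% lower. On the ILC and T cell genes all 14 were lower (median -2.25), where 87.9% of all genes tested were lower, and on library totals 4 were higher and 6 lower (median -0.11), where 20.0% were higher and 42.5% lower. Many of these genes carry the ER stress response element (ERSE), which ATF6 and XBP1 bind together with NF-Y. In the RefSeq promoters on GRCm38.p6, which run from 250 bases before to 50 bases after each start, 31 of the 34 members had an entry; Hyou1, Manf and Atf6 did not. The exact letters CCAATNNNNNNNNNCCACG, searched on both strands, were in 39 of 32851 promoters (0.119%) and in those of 7 of the 12 chaperone genes with an entry. Each site is shown 5′ to 3′ on the strand that reads CCAAT first, with the element in capitals and 5 flanking bases on each side.
Hspa5: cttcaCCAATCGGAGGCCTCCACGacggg
Hsp90b1 first site: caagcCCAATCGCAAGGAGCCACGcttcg
Hsp90b1 second site: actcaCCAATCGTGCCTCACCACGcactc
Calr: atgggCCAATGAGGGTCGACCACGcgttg
Canx: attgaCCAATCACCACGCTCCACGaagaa
Pdia6: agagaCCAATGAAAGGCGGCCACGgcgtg
Dnajc3: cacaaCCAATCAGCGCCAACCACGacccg
Creld2: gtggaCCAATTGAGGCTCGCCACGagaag

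The whole Hspa5 promoter, at chr2:34771840-34772139 (plus strand), shows that element between -65 and -47 from the start, in capitals, in a region with further CCAAT letters that the exact search does not count.
Hspa5: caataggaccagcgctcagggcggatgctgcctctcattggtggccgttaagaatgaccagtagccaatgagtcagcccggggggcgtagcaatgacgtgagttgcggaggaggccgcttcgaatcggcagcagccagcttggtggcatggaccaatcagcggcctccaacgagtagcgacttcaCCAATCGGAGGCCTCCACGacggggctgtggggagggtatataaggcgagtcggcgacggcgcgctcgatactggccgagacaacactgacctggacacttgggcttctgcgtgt

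Hspa5, which encodes BiP, the main Hsp70 chaperone of the ER and the protein that holds the sensors inactive, had the highest level of the 34 genes. It had 1478, 1482 and 1534 CPM in libraries labelled Batf-deficient, against 632, 657 and 669 CPM in those labelled control. The groups stood far apart, and the spread within each was small. The difference was 2.30-fold (edgeR log2 fold change 1.2, SE 0.08, adjusted p = 8.62e-08), and -1.32 when scaled on the ILC and T cell genes. Pdia3, the disulfide isomerase that works with calnexin and calreticulin on glycoproteins, had 457, 455 and 479.7 CPM in libraries labelled Batf-deficient and 224, 234 and 224 CPM in those labelled control. It was 2.04-fold higher with no overlap (edgeR log2 fold change 1.03, SE 0.09, adjusted p = 6.12e-07; -1.49 on the ILC and T cell genes). Pdia4, a related isomerase, followed at 0.84, and Dnajc3, a J protein that also restrains PERK, at 0.70. Manf, a secreted ER protein induced by stress, was at 0.64, and Dnajb9, a J protein that loads BiP onto IRE1α, at 0.52. These 4 genes passed with edgeR adjusted p between 2.40e-05 and 0.00991, and were at -1.68, -1.82, -1.88 and -2.00 on the ILC and T cell genes. On library totals Manf (0.26, edgeR adjusted p = 0.0669) and Dnajb9 (0.14, edgeR adjusted p = 0.449) did not pass. Exons of Manf share 326 bases with those of other genes. Dnajb9 did not pass without Batf-deficient replicate 1 or without Batf-deficient replicate 2 (edgeR adjusted p up to 0.0902, log2 fold change 0.39 to 0.65 over the libraries left out).

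Hsp90b1 encodes GRP94, the ER Hsp90 that folds Toll-like receptors and integrins. It had 615, 629 and 514 CPM in libraries labelled Batf-deficient and 455, 514 and 437 CPM in those labelled control, so that the groups met at their edges. Its value of 0.32 on the log2 scale (SE 0.11, edgeR adjusted p = 0.0189) turned to -0.06 on library totals and -2.21 on the ILC and T cell genes. The call ended without Batf-deficient replicate 1, without Batf-deficient replicate 2 and without control replicate 1 (edgeR adjusted p up to 0.166), and 632 bases of its exons overlap those of other genes, with counting by strand not stated.

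The other chaperones were lower or did not pass. Hyou1, the large Hsp70-like exchange factor of BiP (GRP170), had 33.3, 32.3 and 31.4 CPM in libraries labelled Batf-deficient and 54.3, 46.1 and 64.1 CPM in those labelled control. It was 1.70-fold lower without overlap (edgeR log2 fold change -0.76, SE 0.15, adjusted p = 6.48e-04). Dnajb11, another J protein partner of BiP, was lower, at -0.49 on the log2 scale (SE 0.15, edgeR adjusted p = 0.0112). Its promoter holds the related element ERSE-II, found in its exact form in 12 of 32851 promoters (0.0365%) and in 2 members. Pdia6 (-0.06), the lectin chaperones Calr (0.22; -2.30 on the ILC and T cell genes) and Canx (-0.19), the BiP cofactor Sdf2l1 (-0.02) and the isomerase-like Creld2 (-0.29) did not pass, with edgeR adjusted p between 0.0540 and 0.883. On library totals Pdia6 (-0.44), Canx (-0.57), Sdf2l1 (-0.41) and Creld2 (-0.67) passed as lower, with edgeR adjusted p between 4.25e-04 and 0.0225. Creld2 also passed as lower with DESeq2 (log2 fold change -0.33, DESeq2 adjusted p = 0.0412). Of the 7 chaperone genes with an ERSE, Hspa5, Hsp90b1 and Dnajc3 were higher with TMM factors, and Calr, Canx, Pdia6 and Creld2 did not pass. Pdia3 and Pdia4, which were higher, had no exact ERSE in this window.

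**Figure D2:**
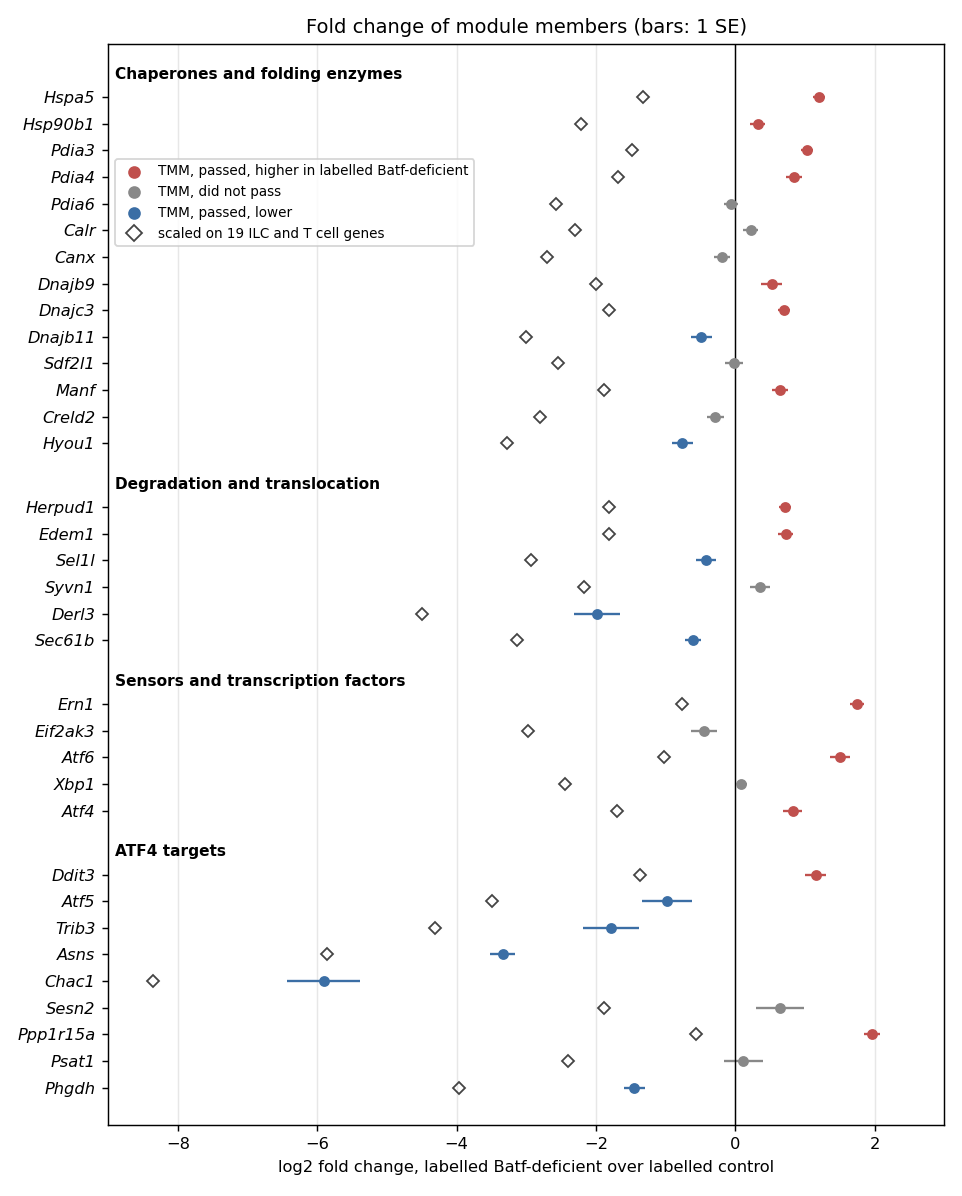
Log2 fold change of each member, labelled Batf-deficient over labelled control, with TMM factors (filled points, bars 1 SE, coloured by the edgeR call) and scaled on 19 ILC and T cell genes (open diamonds). The diamonds lie left of 0 for all 34 genes, -0.56 for Ppp1r15a being the nearest to 0 and -8.36 for Chac1 the farthest.

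Of the 6 genes of ER-associated degradation and translocation 2 were higher, 3 lower and 1 did not pass with TMM factors (median -0.04), where 30.2% of all genes tested were higher and 34.1% lower. On the ILC and T cell genes all 6 were lower (median -2.55), as were 87.9% of all genes tested. Herpud1, an ER membrane protein that helps assemble the degradation complex, had 303, 287 and 291 CPM in libraries labelled Batf-deficient and 191, 174 and 173 CPM in those labelled control. It was 1.64-fold higher without overlap (edgeR log2 fold change 0.71, SE 0.09, adjusted p = 2.86e-05; -1.81 on the ILC and T cell genes). Its promoter holds an ERSE-II and, upstream of it, a motif of the ATF4 type described below, which do not overlap.
Herpud1 ERSE-II: cgctgATTGGGCCACGttgga
Herpud1 ATF4-type motif, opposite strand: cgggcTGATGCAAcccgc

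Edem1, which sends misfolded glycoproteins for degradation, was close beside Herpud1 at 0.72 (SE 0.11, edgeR adjusted p = 1.08e-04; -1.81 on the ILC and T cell genes). In the ligase complex Sel1l, the adaptor, was at -0.42 (SE 0.14, edgeR adjusted p = 0.0236), and Syvn1, the ubiquitin ligase HRD1, at 0.35 did not pass (edgeR adjusted p = 0.0524; -2.17 on the ILC and T cell genes). The call of Sel1l ended without Batf-deficient replicate 1 and without control replicate 1 (edgeR adjusted p up to 0.0850). Sec61b, a subunit of the channel through which proteins enter the ER, was 1.53-fold lower, with 88.5 ± 8.61 CPM in libraries labelled Batf-deficient and 135 ± 15 CPM in those labelled control (SD, n = 3 each; edgeR log2 fold change -0.61, SE 0.12, adjusted p = 7.78e-04).

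Derl3 and Syvn1 are the members of this role with an exact ERSE. Derl3 encodes a derlin of the degradation channel that is abundant in secretory cells. It had 2.77, 4.12 and 6.20 CPM in libraries labelled Batf-deficient and 13.1, 23.1 and 16.9 CPM in those labelled control. No library of either group reached the other group's range, and the difference was 3.98-fold (edgeR log2 fold change -1.99, SE 0.33, adjusted p = 2.17e-04). Beside it, plasma cell markers, without members of the module, summed to 0.115% to 0.130% of counts in the libraries labelled Batf-deficient. In those labelled control they summed to 1.5% to 1.52%. Pancreatic acinar genes summed to 0.00836% to 0.0105% in the libraries labelled Batf-deficient and 12.6% to 13.0% in those labelled control. The part of either cell type in the value of Derl3 was not tested. Its promoter, at chr10:75893148-75893447 (plus strand), carries the ERSE on the opposite strand, so that the capitals read CGTGG first. It is shown because an ERSE is shared with Hspa5 while the fold changes have opposite signs with TMM factors and on library totals. Scaled on the ILC and T cell genes both were lower, at -4.50 for Derl3 and -1.32 for Hspa5.
Derl3: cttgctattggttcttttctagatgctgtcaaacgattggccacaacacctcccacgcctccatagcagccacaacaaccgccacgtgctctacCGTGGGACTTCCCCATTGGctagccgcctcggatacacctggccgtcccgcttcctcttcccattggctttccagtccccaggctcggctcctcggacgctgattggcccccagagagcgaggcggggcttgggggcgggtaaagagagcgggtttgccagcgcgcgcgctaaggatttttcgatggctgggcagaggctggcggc

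Of the 5 sensors and transcription factors 3 were higher and none lower with TMM factors (median 0.82), while all 5 were lower on the ILC and T cell genes (median -1.70). Over all genes tested the shares were 30.2% higher and 34.1% lower with TMM factors, and 87.9% lower on the ILC and T cell genes. On library totals 3 were higher and 2 lower (median 0.44), where 20.0% of all genes tested were higher and 42.5% lower. Ern1, which encodes the sensor and ribonuclease IRE1α, had 242, 252 and 237 CPM in libraries labelled Batf-deficient and 73.7, 66.5 and 77.6 CPM in those labelled control. It was 3.36-fold higher, with wide separation (edgeR log2 fold change 1.75, SE 0.10, adjusted p = 2.33e-08; -0.77 on the ILC and T cell genes). Atf6, the membrane-bound factor that is cut free in the Golgi, had 120.4, 117 and 128 CPM in libraries labelled Batf-deficient and 46.7, 48.6 and 34.1 CPM in those labelled control. The log2 fold change was 1.5 (SE 0.14, edgeR adjusted p = 1.81e-06; -1.02 on the ILC and T cell genes), and the groups did not overlap. Eif2ak3, which encodes PERK, had the opposite sign: it was at 13.9 ± 0.617 CPM in libraries labelled Batf-deficient and 19.1 ± 2.39 CPM in those labelled control and did not pass (SD, n = 3 each; edgeR log2 fold change -0.45, adjusted p = 0.0539). On library totals Eif2ak3 passed as lower (-0.83, edgeR adjusted p = 0.00256). Exons of Eif2ak3 share 485 bases with a gene on the other strand.

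Xbp1 was nearly level beside its activator. It had 368, 369 and 358 CPM in libraries labelled Batf-deficient and 356, 344 and 339 CPM in those labelled control. The libraries of the groups did not overlap, but the difference was small and did not pass (edgeR log2 fold change 0.08, SE 0.08, adjusted p = 0.442), while on library totals it was lower (-0.30, edgeR adjusted p = 0.0125) and on the ILC and T cell genes -2.44. Counts per gene do not separate spliced from unspliced Xbp1, cut from uncut ATF6 or translated from untranslated Atf4, so the levels given here are of RNA and not of activity. Atf4 itself had 299, 296 and 314 CPM in libraries labelled Batf-deficient and 147, 154 and 214 CPM in those labelled control. It was 1.76-fold higher without overlap (edgeR log2 fold change 0.82, SE 0.14, adjusted p = 2.17e-04; -1.70 on the ILC and T cell genes).

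Of the 9 ATF4 targets 2 were higher, 5 lower and 2 did not pass with TMM factors (median -0.98), while on the ILC and T cell genes all 9 were lower (median -3.49). The 2 higher genes are 22.2% and the 5 lower 55.6% of the role, against 30.2% and 34.1% of all genes tested, and 87.9% of all genes tested were lower on the ILC and T cell genes. On library totals the counts were again 2 higher and 5 lower (median -1.35), where 20.0% of all genes tested were higher and 42.5% lower. Ppp1r15a encodes GADD34, which returns translation to normal by directing a phosphatase to eIF2α, and had 588, 584 and 613 CPM in libraries labelled Batf-deficient and 180.3, 128 and 151 CPM in those labelled control. It had the largest positive fold change of the 34 genes, 3.89-fold (edgeR log2 fold change 1.96, SE 0.12, adjusted p = 4.34e-08; -0.56 on the ILC and T cell genes). Ddit3, which encodes the transcription factor CHOP, had 51.7, 49.9 and 50.7 CPM in libraries labelled Batf-deficient and 19, 22.7 and 26.7 CPM in those labelled control. It was 2.22-fold higher without overlap (edgeR log2 fold change 1.15, SE 0.15, adjusted p = 3.55e-05; -1.37 on the ILC and T cell genes).

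Among the lower genes, Asns, which makes asparagine from aspartate, had 4.85, 6.25 and 5.15 CPM in libraries labelled Batf-deficient and 56.8, 58.8 and 48.6 CPM in those labelled control. It was 10.1-fold lower, with no library near the other group (edgeR log2 fold change -3.34, SE 0.18, adjusted p = 9.66e-09). Chac1, which breaks down glutathione, had 6 counts in all in the libraries labelled Batf-deficient (1, 3 and 2) and 722 in those labelled control, where its level was 8.39, 15.1 and 19.2 CPM. The ratio of its counts per scaled library total was 67.8-fold lower in the libraries labelled Batf-deficient (95% exact counting interval 31.0 to 185; edgeR adjusted p = 1.07e-06). Phgdh, the first enzyme of serine synthesis, had 23.1, 22.2 and 24.2 CPM in libraries labelled Batf-deficient and 76.7, 58.2 and 55.6 CPM in those labelled control. It was 2.73-fold lower without overlap (edgeR log2 fold change -1.45, SE 0.15, adjusted p = 5.09e-06). The pseudokinase gene Trib3, an inhibitor of AKT and of ATF4 itself, had 2.22, 2.56 and 1.53 CPM in libraries labelled Batf-deficient and 4.81, 7.33 and 9.24 CPM in those labelled control (edgeR log2 fold change -1.79, SE 0.40, adjusted p = 0.00199).

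Atf5, a relative of Atf4, was low in every library, at 2.84 to 4.35 CPM in those labelled Batf-deficient and 4.81 to 8.59 CPM in those labelled control (edgeR log2 fold change -0.98, SE 0.36, adjusted p = 0.0310). Its call ended without Batf-deficient replicate 1, without Batf-deficient replicate 2, without control replicate 2 and without control replicate 3 (edgeR adjusted p up to 0.106), and 164 bases of its exons overlap Il4i1 and Nup62. Psat1, the second enzyme of serine synthesis, was at 10.5 ± 1.10 CPM in libraries labelled Batf-deficient and 9.69 ± 3.26 CPM in those labelled control and did not pass (SD, n = 3 each; edgeR log2 fold change 0.11, adjusted p = 0.752; -2.40 on the ILC and T cell genes). Sesn2, a leucine sensor upstream of mTORC1, was at 11.2 ± 1.34 CPM in libraries labelled Batf-deficient and 7.14 ± 3.48 CPM in those labelled control and did not pass either (SD, n = 3 each; edgeR log2 fold change 0.64, adjusted p = 0.123; -1.88 on the ILC and T cell genes).

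A motif to which ATF4 binds with C/EBP partners (CARE) was searched in the same promoters with the letters TGATGNAA on both strands. It was present in 1304 of 32851 promoters (3.97%) and in 3 of the 9 ATF4 targets, Asns, Chac1 and Trib3. All 3 were among the 5 lower genes. Herpud1, the other member with a match, was higher. Among the lists described below, the letters were in 5 of 11 aminoacyl-tRNA synthetases with an entry and 5 of 17 wider stress response genes. They were in 2 of 7 amino acid transporters, 2 of 10 synthesis enzymes, 2 of 19 folding genes and 1 of 22 translocation genes. The synthetases had a median log2 fold change of -0.25 with TMM factors. Whether the motif goes with a direction was not tested. Ppp1r15a, Ddit3, Atf5, Phgdh, Psat1 and Sesn2 do not have these letters in this window, which says nothing of sites elsewhere. The sites are shown on the strand that reads TGATG first, with the motif in capitals.
Asns: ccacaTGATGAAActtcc
Chac1: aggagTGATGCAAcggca
Trib3: ccggcTGATGTAAacctg

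The promoters of the members with the largest decrease are given whole, with the motif in capitals. That of Asns lies at chr6:7693160-7693459 (minus strand) and holds the motif between -23 and -16 from the start. That of Chac1 lies at chr2:119350992-119351291 (plus strand) and holds it on the opposite strand between -193 and -186.
Asns: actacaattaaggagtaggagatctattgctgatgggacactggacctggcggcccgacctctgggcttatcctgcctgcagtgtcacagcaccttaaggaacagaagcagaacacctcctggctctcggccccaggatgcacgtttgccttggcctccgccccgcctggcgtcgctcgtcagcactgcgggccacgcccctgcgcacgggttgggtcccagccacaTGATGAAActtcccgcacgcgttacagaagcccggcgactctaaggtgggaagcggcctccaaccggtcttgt
Chac1: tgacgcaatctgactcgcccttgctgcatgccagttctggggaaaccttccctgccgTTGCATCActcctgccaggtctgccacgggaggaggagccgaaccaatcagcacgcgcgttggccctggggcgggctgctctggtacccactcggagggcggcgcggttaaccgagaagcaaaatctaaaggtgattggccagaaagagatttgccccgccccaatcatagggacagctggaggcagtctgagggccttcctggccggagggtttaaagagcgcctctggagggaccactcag

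The chaperone and ATF4 target genes were then set against each other inside each library, as the mean log2(CPM + 0.5) over the 14 chaperones minus that over the 9 ATF4 targets. This difference was 3.73, 3.70 and 3.72 in the libraries labelled Batf-deficient and 2.88, 2.67 and 2.37 in those labelled control. The groups did not overlap, and the means were 3.72 ± 0.02 in the libraries labelled Batf-deficient and 2.64 ± 0.25 in those labelled control (SD, n = 3 each), a difference of 1.08 on the log2 scale. It was 1.05 on library totals and 0.84 on the ILC and T cell genes, where the added 0.5 weighs more on low values. With TMM factors the chaperone mean was 7.26 ± 0.01 in the libraries labelled Batf-deficient and 7.0 ± 0.03 in those labelled control, and the ATF4 target mean was 3.54 ± 0.01 in the libraries labelled Batf-deficient and 4.36 ± 0.23 in those labelled control (SD, n = 3 each). The sensors and factors averaged 7.09 ± 0.01 in the libraries labelled Batf-deficient and 6.35 ± 0.03 in those labelled control, and degradation and translocation genes averaged 6.06 ± 0.12 in the libraries labelled Batf-deficient and 6.26 ± 0.04 in those labelled control (SD, n = 3 each). The chaperone side had a positive median with TMM factors (0.27) but not on library totals (-0.11) or the ILC and T cell genes (-2.25), where the ATF4 targets had lower medians still (-1.35 on library totals and -3.49 on the ILC and T cell genes). No test was made of these scores over members. The ATF4 target mean hides the split among its genes, from -5.91 for Chac1 to 1.96 for Ppp1r15a. Chac1 and Asns (-3.34) had the widest gaps of the 9 genes and so weigh most in its difference between the groups. Chac1 rests on 6 counts in all in the libraries labelled Batf-deficient, where the added 0.5 largely sets its value. Of the other targets, Ppp1r15a (1.96), Ddit3 (1.15), Sesn2 (0.64) and Psat1 (0.11) were positive with TMM factors, though Sesn2 and Psat1 did not pass. Trib3 (-1.79), Phgdh (-1.45) and Atf5 (-0.98) were negative. The difference between the groups is thus not a shift shared by the 9 genes. The mean without Chac1 and Asns was not computed.

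**Figure D3:**
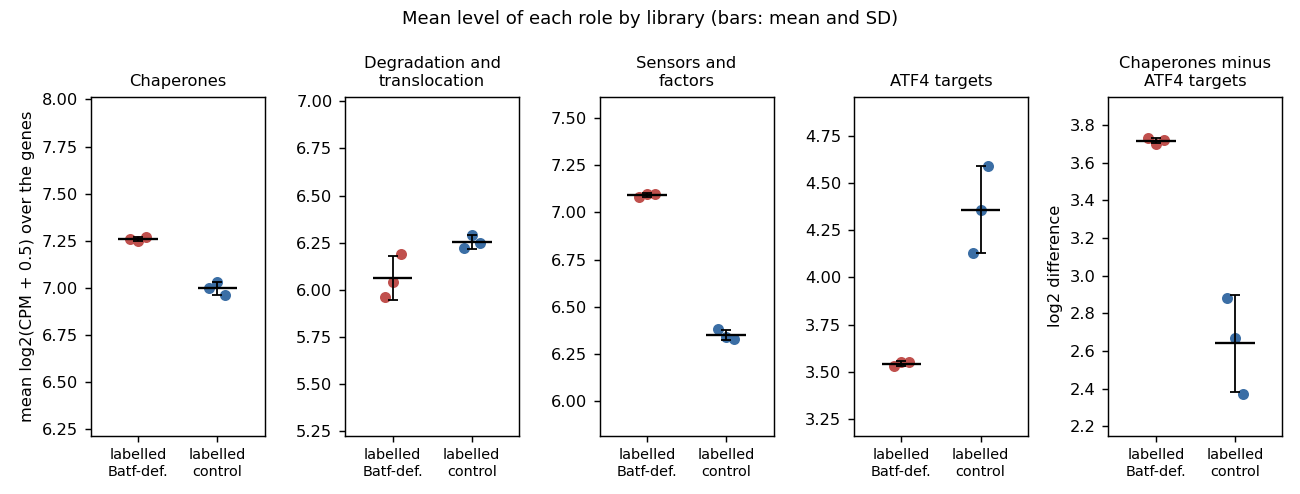
Mean log2(CPM + 0.5) of the genes of each role in each library (points), with group mean and SD (lines), and in the last panel chaperones minus ATF4 targets; every panel spans the same height on the log2 scale. The libraries labelled Batf-deficient lie at 3.70 to 3.73 in the last panel, all above the 2.37 to 2.88 of those labelled control.

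Levels of different genes were compared per length, as CPM per kilobase of exons in the GENCODE M21 annotation. Hspa5 led in both groups, at 354 CPM per kilobase in the libraries labelled Batf-deficient and 154 in those labelled control. In the libraries labelled Batf-deficient Ppp1r15a came second at 203, then Pdia3 at 148, Hsp90b1 at 145, Atf4 at 129 and Herpud1 at 126. In those labelled control the next genes were Hsp90b1 at 116 and Sec61b and Xbp1 at 107 each, while Ppp1r15a was at 52.1. At the low end Chac1, at 0.148 CPM per kilobase, was below every other member in the libraries labelled Batf-deficient; in those labelled control it was at 8.69, and 8 members were below it, the lowest being Sesn2 at 2.06, Psat1 at 2.28 and Eif2ak3 at 3.17. Among all genes tested, the log2 fold changes of Ppp1r15a, Ern1 and Atf6 stood at percentiles 91.8, 89.8 and 86.7, and those of Chac1, Asns and Derl3 at 3.52, 11.9 and 18.9. Most other members lay in the middle of the distribution, with Xbp1 at percentile 51.7.

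Further genes of the same pathways were measured as lists taken from pathway membership, and each count is to be read against the 30.2% higher and 34.1% lower of all genes tested with TMM factors, and the 87.9% lower on the ILC and T cell genes. Of 21 tested genes of ER folding and glycosylation 4 (19%) were higher and 9 (42.9%) lower (median -0.12; -2.64 on the ILC and T cell genes). Ero1a, the oxidase that recharges disulfide isomerases, was the highest of them at 173 ± 13.9 CPM in libraries labelled Batf-deficient and 46.0 ± 3.74 CPM in those labelled control (SD, n = 3 each; edgeR log2 fold change 1.91, adjusted p = 2.93e-08; -0.61 on the ILC and T cell genes), followed by the LDL receptor chaperone gene Mesd at 0.67 (-1.84 on the ILC and T cell genes). The lowest were Fkbp11, a prolyl isomerase of secretory cells (-5.06, edgeR adjusted p = 2.54e-07), and the isomerase gene Pdia5 (-3.82, edgeR adjusted p = 3.11e-06). Fkbp11 had 0.858 ± 0.643 CPM in libraries labelled Batf-deficient and 29.9 ± 3.27 CPM in those labelled control (SD, n = 3 each). Of 29 genes of translocation, traffic and degradation 11 (37.9%) were higher and 9 (31.0%) lower, shares near those of all genes tested (median -0.02; -2.54 on the ILC and T cell genes). They included the signal peptidase subunit Sec11c at 1.66 (-0.86 on the ILC and T cell genes) and the receptors that return escaped ER proteins, Kdelr3 at -3.33 and Kdelr2 at -1.37, all with edgeR adjusted p of at most 1.81e-05. Srp54a, of the signal recognition particle, had the largest positive value of this list (2.55, edgeR adjusted p = 0.0359; 0.03 on the ILC and T cell genes), but it belongs to a family of near-identical copies whose reads can be split.

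Of 17 tested genes of the wider integrated stress response 3 (17.6%) were higher and 9 (52.9%) lower (median -0.66; -3.18 on the ILC and T cell genes). Ddit4, an inhibitor of mTORC1, was at 2.05 (edgeR adjusted p = 8.89e-05; -0.45 on the ILC and T cell genes) and the sestrin gene Sesn3 at 1.70 (edgeR adjusted p = 1.02e-04; -0.82 on the ILC and T cell genes). Vldlr, a lipoprotein receptor gene, and Gdf15, a secreted stress hormone, were at -3.84 and -3.45 (edgeR adjusted p = 2.07e-05 and 7.16e-06). Of 10 tested amino acid transporters 6 (60.0%) were higher and the other 4 lower (median 0.57; -1.95 on the ILC and T cell genes). Slc3a2, the heavy chain shared by several of them, had 938 ± 26.4 CPM in libraries labelled Batf-deficient and 325 ± 30.0 CPM in those labelled control (SD, n = 3 each; edgeR log2 fold change 1.53, adjusted p = 4.22e-08; -0.99 on the ILC and T cell genes), and its partner Slc7a6 was at 1.71 (-0.81 on the ILC and T cell genes). The glycine transporter Slc6a9 had 3 counts in all in the libraries labelled Batf-deficient, a ratio of 34-fold lower (95% exact counting interval 11.5 to 166), and the neutral amino acid transporter Slc1a4 was at -3.03.

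Of 12 enzymes of amino acid and one-carbon synthesis 7 (58.3%) were lower and 2 (16.7%) higher, against 34.1% and 30.2% of all genes tested (median -2.14; -4.65 on the ILC and T cell genes). Cth and Cbs, which make cysteine from homocysteine, had the largest decreases. Cth had 0.877 ± 0.103 CPM in libraries labelled Batf-deficient and 54.8 ± 1.48 CPM in those labelled control (SD, n = 3 each; edgeR log2 fold change -5.97, adjusted p = 2.60e-10), and Cbs was at -4.99 (edgeR adjusted p = 4.39e-06). Got1, the cytosolic aspartate aminotransferase, was higher at 188 ± 5.51 CPM in libraries labelled Batf-deficient and 43.7 ± 2.36 CPM in those labelled control (SD, n = 3 each; edgeR log2 fold change 2.11, adjusted p = 4.61e-09; -0.41 on the ILC and T cell genes), as was Psph, the last enzyme of serine synthesis, at 0.77 (-1.76 on the ILC and T cell genes). Of 18 cytosolic aminoacyl-tRNA synthetases, which charge tRNAs with amino acids, 5 (27.8%) were higher and 8 (44.4%) lower (median -0.25; -2.77 on the ILC and T cell genes). Their range was narrow, from -1.05 for Qars to 0.84 for Eprs, with Rars at -0.72 and Hars at 0.58; on the ILC and T cell genes Eprs was at -1.68 and Hars at -1.93. Over the 107 tested genes of these lists 31 (29.0%) were higher and 46 (43.0%) lower, against 30.2% and 34.1% of all genes tested.

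**Figure D4:**
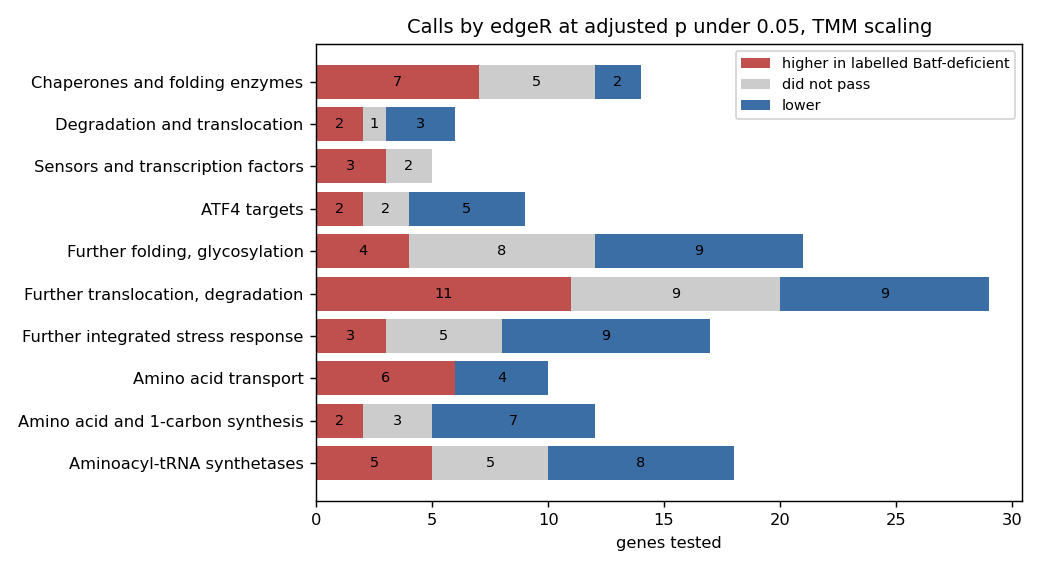
Number of genes tested in each role of the module (top 4 bars) and in each further pathway list that were higher, did not pass or were lower in the libraries labelled Batf-deficient by edgeR with TMM factors. Chaperones have 7 higher and 2 lower genes, whereas ATF4 targets have 2 higher and 5 lower. Over all genes tested 30.2% were higher and 34.1% lower. Scaled on the ILC and T cell genes, all 34 module genes were lower, as were 87.9% of all genes tested.

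Markers of secretory and other cell types also differed between the groups. Their calls are given with TMM factors, where 30.2% of all genes tested were higher and 34.1% lower. All 33 tested acinar genes were lower in the libraries labelled Batf-deficient, and 12 of the 34 in the table had no count there, among them the lipase-related Pnliprp1, the trypsin Try4 and the lineage factor Ptf1a. The amylase Amy2a4 had 0.234 ± 0.216 CPM in libraries labelled Batf-deficient and 24564 ± 480.5 CPM in those labelled control (SD, n = 3 each), and the elastase Cela2a had 0.0999 ± 0.0872 CPM in libraries labelled Batf-deficient and 13459 ± 274 CPM in those labelled control. Of 16 tested plasma cell markers 11 were lower and 4 higher, with the IgA heavy chain gene Igha at 468 ± 16.3 CPM in libraries labelled Batf-deficient and 6828 ± 319 CPM in those labelled control (SD, n = 3 each). The light chain gene Igkc had 429.5 ± 23.4 CPM in libraries labelled Batf-deficient and 3943 ± 157 CPM in those labelled control (SD, n = 3 each). Ighg1 was the only plasma cell marker with no count in libraries labelled Batf-deficient. Goblet and Paneth cell markers, of which 13 of 14 were lower and none higher, summed to 0.130% to 0.151% of counts in the libraries labelled Batf-deficient and 1.32% to 1.5% in those labelled control, led by Defa24 and by Zg16, which the acinar list holds too. Intestinal epithelial markers, led by Krt8 and Lgals4, summed to 0.0323% to 0.0389% in the libraries labelled Batf-deficient and 1.56% to 1.66% in those labelled control, with 15 of 15 lower. Macrophage and dendritic cell markers, led by Lyz2 and C1qb, had 10 of 12 lower and 1 higher. Stromal and endothelial markers, led by Col1a2 and Col1a1, likewise had 10 of 12 lower and 1 higher. The higher calls in the plasma cell, macrophage and stromal lists did not hold on the ILC and T cell genes. There 15 of 16 plasma cell markers were lower, as were 12 of 12 in each of the other 2 lists, against 87.9% of all genes tested. Leaving the acinar genes out of the table before scaling changed no member's call, but this leaves other RNA of acinar cells in the counts. The part of these cells' RNA in the values of the module was not tested.

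The 12 ILC3 markers, led by Il22 and Id2, had 6 higher and 5 lower genes when scaled on the ILC and T cell genes, which include Il7r and Thy1 of that list, and 8 of 10 T cell markers, led by Trbc2 and Trbc1, were higher with TMM factors but only 3 on the ILC and T cell genes. Inducible heat shock genes of the cytosol, in contrast to the ER chaperones, were higher by TMM factors, library totals and the ILC and T cell genes: 8 of 8 with TMM factors (median 5.23), 8 of 8 on library totals and 8 of 8 on the ILC and T cell genes (median 2.71). Hspa1a, the inducible Hsp70, had 24736 ± 330.0 CPM in libraries labelled Batf-deficient and 73.3 ± 9.48 CPM in those labelled control (SD, n = 3 each), and Hsp90aa1, the inducible cytosolic Hsp90, had 12566 ± 316 CPM in libraries labelled Batf-deficient and 344 ± 31.8 CPM in those labelled control.

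**Figure D5:**
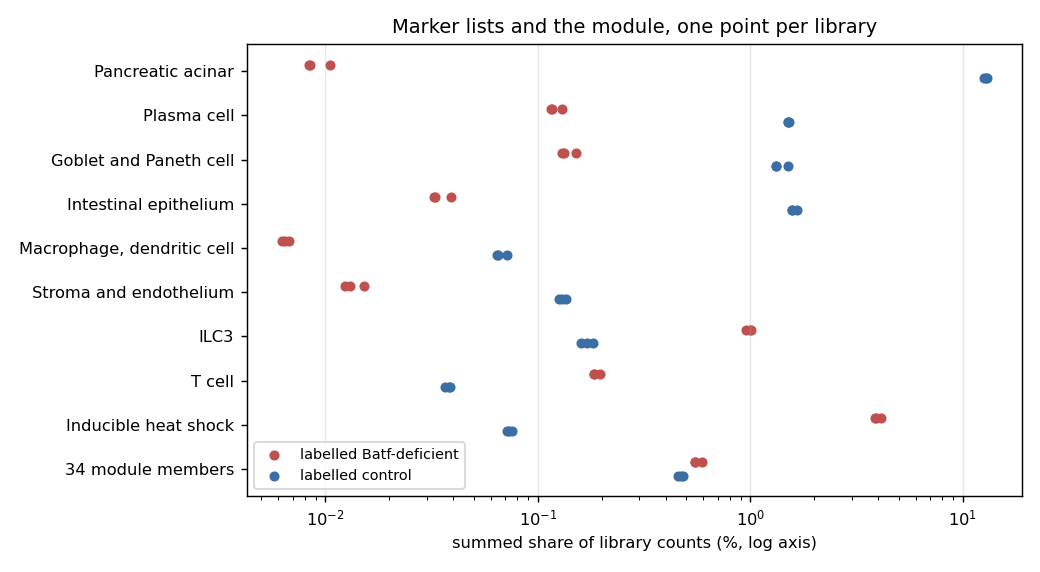
Summed share of library counts, in percent on a log axis, of marker lists and of the 34 module genes, with a point per library. The module's share is 0.546% to 0.589% in the libraries labelled Batf-deficient and 0.458% to 0.482% in those labelled control, a far smaller gap than that of the acinar list, at 0.00836% to 0.0105% in the libraries labelled Batf-deficient and 12.6% to 13.0% in those labelled control.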

How the data were processed

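Sorted small-intestinal cells from 6 samples in 2 groups of 3 were read by Smart-seq2 from 2 ng of RNA, per the labels' protocols. The authors deposited whole-number counts per gene symbol; mm10 is the build named in the submitters' processing notes, and for the aligner, counter, annotation and strand setting, the entry is: not given in the sources used here. Reads of Smart-seq2 carry no molecular identifiers, so intervals cover counting error only. Counts were analysed with edgeR 4.0.16 in R 4.3.3: filterByExpr by group (minimum count 10), TMM, glmQLFit with robust=TRUE, glmQLFTest (two-sided), group as the only term, all 6 libraries, Benjamini-Hochberg adjustment over 15261 genes, threshold 0.05. SE is the size of the log2 fold change over the root of the F statistic. The model was tested on simulated counts in which most genes did not differ, so that test does not cover the choice of scaling. DESeq2 1.42.0 was an alternative, as were other scalings (library totals, 19 ILC and T cell genes), a table without acinar genes, no filter, the replicate number as a block, each library left out, and Batf-deficient replicates 1 and 2 summed. These replicates were the most alike (chi-square per gene 2.44, others 15.6 to 26.0), so p-values may in part measure technical spread. Members and lists were chosen with earlier results of these data known. All 34 members are reported; from each further list up to 2 genes with the largest positive and 2 with the largest negative passing fold change are named, and from each marker list the 2 with the highest mean CPM, with Pnliprp1, Try4, Ptf1a and Ighg1 named after their values were seen. Coordinates and exon lengths are from GENCODE M21, on the same build; 11 members share exon bases with another gene. Promoters are from RefSeq (GRCm38.p6).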

Additional observations from a re-analysis of the deposited data

How the results depend on the processing

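No member changed its call when acinar genes were removed before scaling or with no filter on low counts. Removing those genes bears on the scaling only and leaves other RNA of acinar cells in the counts. Scaling changed most: members called higher numbered 0 on the ILC and T cell genes and 11 on library totals, against 14 with TMM factors, and members called lower 34 and 16, against 10. By role, the higher calls on the ILC and T cell genes were 0 in each, and the lower calls 14 (chaperones), 6 (degradation and translocation), 5 (sensors and factors) and 9 (ATF4 targets); on library totals chaperones had 4 higher and 6 lower, and sensors 2 lower. Over all genes, 267 were called higher and 13408 lower when scaled on the ILC and T cell genes, and 3048 higher on library totals. Medians on the ILC and T cell genes were -2.25 (chaperones, reversed), -2.55 (degradation), -1.70 (sensors, reversed) and -3.49 (ATF4 targets); on library totals they were -0.11 (chaperones, reversed), -0.41 (degradation) and 0.44 (sensors). The chaperone minus ATF4 target difference was 0.84 on the ILC and T cell genes; DESeq2 size factors gave 1.07, a table without acinar genes 1.09, no filter gave 1.08, and the block, which does not enter a difference of group means, gave no value. Members that turned negative on the ILC and T cell genes were Hspa5 (-1.32), Hsp90b1 (-2.21), Pdia3 (-1.49), Pdia4 (-1.68), Calr (-2.30), Dnajb9 (-2.00), Dnajc3 (-1.82), Manf (-1.88), Herpud1 (-1.81), Edem1 (-1.81), Syvn1 (-2.17), Ern1 (-0.77), Atf6 (-1.02), Xbp1 (-2.44), Atf4 (-1.70), Ddit3 (-1.37), Sesn2 (-1.88), Ppp1r15a (-0.56) and Psat1 (-2.40); on library totals Hsp90b1 (-0.06), Xbp1 (-0.30), Calr (-0.16), Syvn1 (-0.03) and Psat1 (-0.26) did, of which Xbp1 passed. Library totals also ended the calls of Manf (0.26) and Dnajb9 (0.14). With that scaling Pdia6 (-0.44), Canx (-0.57), Sdf2l1 (-0.41), Creld2 (-0.67) and Eif2ak3 (-0.83) passed as lower. These shifts follow from the scaling itself, which moves every gene by about the same amount. Leaving out each library in turn gave 12 to 16 higher and 8 to 11 lower members. Over all genes, of which 15333 to 16622 were then tested, 3603 to 4705 were higher and 5149 to 5451 lower. Medians were 0.18 to 0.29 (chaperones), -0.17 to -0.01 (degradation), 0.71 to 1.02 (sensors) and -1.26 to -0.80 (ATF4 targets). There were 0 to 1 lower sensors, and the chaperone minus ATF4 target difference was 0.94 to 1.2. Without control replicate 3 Eif2ak3 passed as lower (-0.54), and Sesn2 (1.08) and Syvn1 (0.50) as higher; Creld2 passed as lower without Batf-deficient replicate 3 and without control replicate 1. With the replicate number as a block, 4603 genes were higher and 5091 lower, and 16 members were higher and 10 lower; Calr (0.21), Creld2 (-0.29) and Syvn1 (0.35) passed and Atf5 (-0.96) did not. With Batf-deficient replicates 1 and 2 summed, 12 members were higher and 8 lower, beside 3795 higher and 5226 lower of 16975 genes tested. Hsp90b1, Dnajb9, Sel1l and Atf5 did not pass there. Same-numbered libraries deviated together only weakly (correlations 0.004, 0.021 and 0.030), and not every library correlated best with its own number. The main fit did not pair them, and these values cannot tell whether same-numbered samples were prepared together. Depth limits Chac1, Trib3, Atf5 and Derl3 most.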

Other observations

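Ratios between genes of the same library, which no scaling factor moves, were picked with their values known. The counts of Ppp1r15a were 121, 93.4 and 119 times those of Asns in the libraries labelled Batf-deficient and 3.18, 2.18 and 3.11 times in those labelled control. The counts of Hspa5 were 4.38, 4.44 and 4.30 times those of P4hb, a disulfide isomerase gene, in the libraries labelled Batf-deficient, and 0.540, 0.589 and 0.588 times in those labelled control. P4hb had 343 ± 12.6 CPM in libraries labelled Batf-deficient and 1141 ± 26.9 CPM in those labelled control (SD, n = 3 each), and Txndc5, another isomerase gene, had 41.9 ± 2.75 CPM in libraries labelled Batf-deficient and 189 ± 30.2 CPM in those labelled control. Pdia3 to Pdia6 stood at 2.98, 3.04 and 2.86 in the libraries labelled Batf-deficient and 1.38, 1.46 and 1.33 in those labelled control. The counts of Hspa1a were 17, 16.6 and 16 times those of Hspa5 in the libraries labelled Batf-deficient and 0.112, 0.0992 and 0.125 times in those labelled control. For Ddit3 to Chac1 the ratios were 373, 117 and 315 in the libraries labelled Batf-deficient, where they rest on 1 to 3 counts of Chac1 per library, and 2.27, 1.5 and 1.40 in those labelled control.

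Stress genes outside the module split in the same libraries. Atf3, an early stress-induced transcription factor gene, had 866 ± 26.4 CPM in libraries labelled Batf-deficient and 351 ± 36.3 CPM in those labelled control (SD, n = 3 each; edgeR log2 fold change 1.3, adjusted p = 2.16e-07; -1.22 on the ILC and T cell genes). Nupr1, a chromatin-associated stress protein abundant in pancreas, had 17.7 ± 1.93 CPM in libraries labelled Batf-deficient and 169 ± 22.4 CPM in those labelled control (SD, n = 3 each; edgeR log2 fold change -3.24, adjusted p = 1.79e-09). The proline synthesis genes Pycr1 and Aldh18a1 were at -3.45 and -1.65 (edgeR adjusted p = 1.43e-06 and 2.72e-07). These genes were singled out after their values were seen.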
